A study of Mus musculus with 32 samples.

Results

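Oocyte RNA changes as the egg matures, and the comparison described here asks whether that change differed between the mouse strains D2 and B6. It is the interaction of strain and stage, the log2 change of each gene from germinal vesicle to metaphase II oocytes in D2 minus the same change in B6, estimated over all 21 D2 and B6 libraries of the 32 in the series. The groups were 5 libraries of D2 metaphase II (MII) oocytes, 5 of D2 germinal vesicle (GV) oocytes, 6 of B6 MII and 5 of B6 GV. The other 11 libraries, 5 of F1 MII and 6 of F1 GV oocytes from the B6xD2 cross, did not enter the comparison and served as a separate measurement of the same change. All groups came from females aged 8 to 12 weeks, each library being a pool of 9 to 20 oocytes of 1 mother with the zona removed, and the labels name no engineered allele in any of them. GV oocytes were held with the phosphodiesterase inhibitor IBMX during collection and MII oocytes were not, and hormone priming is not given in the sources used here.

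A GV oocyte is paused in the first meiotic prophase, and an MII oocyte is the ovulated egg waiting for sperm. In the mouse the full-grown oocyte has nearly stopped transcribing, so its RNA changes during maturation mainly by decay of stored messages and by lengthening or shortening of their poly(A) tails. Messages with a cytoplasmic polyadenylation element near their 3′ end are typically stored at GV and recruited for translation as the egg matures, while messages for ribosomal proteins and for the respiratory chain are among those lost.

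Counts totalled 23270696 to 35850302 reads per D2 or B6 library (median 28669850) and 18696957 to 39688961 per F1 library, and 18047 genes passed the filter on low counts. Levels below are in CPM, read counts scaled to a common library size and then between libraries by the trimmed mean of their ratios, so that a change means a change in a gene's share of its library. Each group of D2 or B6 held 3 batch 1 libraries and 2 or 3 batch 2 libraries, the batches having been run on different sequencer models. Batch 2 library names carry 1 of 2 prefixes. All batch 2 B6 libraries share a prefix, while D2 has both at each stage, so strain and prefix are partly tied within batch 2. A batch term of 3 levels, tried below, splits batch 2 by prefix. The oocyte marker genes, Gdf9 and Bmp15 among them, had reads in every library, with a mean of 8.24 to 8.90 log2 CPM over the D2 and B6 groups. Granulosa and cumulus markers, genes of the cells that surround the oocyte, averaged -0.57 ± 0.51 log2 CPM in D2 MII, 2.13 ± 1.41 in D2 GV, -1.17 ± 0.47 in B6 MII and 1.80 ± 1.55 in B6 GV (SD over libraries). Summed over the 28 markers this was 207 to 265 CPM in D2 MII, 250 to 3980 in D2 GV, 166 to 209 in B6 MII and 244 to 4070 in B6 GV. Inha, a defining granulosa gene, was at 0 in 1 of 5 D2 MII and 2 of 6 B6 MII libraries and in no GV library. Cyp19a1, another member of that list, had reads in every library and was not lower in B6 MII. It averaged 46.4 CPM in B6 MII and 37.4 in B6 GV, and 15.3 in D2 MII and 25.3 in D2 GV. In pooled oocytes fewer attached cells and less RNA per cell cannot be told apart. The GV libraries lowest in these markers were D2 GV batch 2 replicate 2 (-0.24) and B6 GV batch 2 replicate 1 (-0.84), both within the span of the MII libraries, and the highest were D2 GV batch 2 replicate 1 (3.24) and B6 GV batch 2 replicate 2 (3.01).

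The maturation change was largely shared by the strains. In D2, 4509 genes changed between the stages (25% of those tested), 1882 of them higher (10.4%) and 2627 lower (14.6%) in MII. In B6 4439 did (24.6%), 1614 higher (8.94%) and 2825 lower (15.7%). Of these, 2729 passed in both strains in the same direction and 4 in opposite directions. Across the 9818 genes of at least 5 CPM the D2 and B6 changes had a Pearson r of 0.86 and a Spearman rho of 0.68, 78.7% of genes had the same sign, and the median absolute difference was 0.22 log2. This correlation is across genes, which are not independent replicates, and both sets of changes rest on the same batch estimate.

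The strains' changes differed for 12 genes, or 0.0665% of those tested, 6 with a higher change in D2 (0.0332%) and 6 with a lower one (0.0332%), by edgeR's quasi-likelihood test at a threshold of 0.05 after Benjamini-Hochberg adjustment. The genes with a higher change in D2 were Pxdn, Stc1, Pknox2, Mtx3, L1td1 and Sp3, and those with a lower change were Myo7a, Elmo1, Rps2, Gm31490, Ppm1m and Rsl1. With no adjustment, 1538 genes (8.52%) had a p under 0.05, of which 879 (4.87%) were higher in D2 and 659 (3.65%) lower. The count of 12 depends on the tool and on single libraries: DESeq2 called 84 genes, limma-voom 0 and batch 2 alone 0, and without D2 GV batch 1 replicate 4 only Myo7a was left, the other 11 then having adjusted p between 0.0502 and 0.07 in edgeR's test. The count also fell to 7 without D2 MII batch 1 replicate 4, B6 MII batch 1 replicate 1 or B6 GV batch 1 replicate 2, and it was 25 without D2 GV batch 2 replicate 2 and 19 without B6 GV batch 2 replicate 1.

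**Figure D1:**
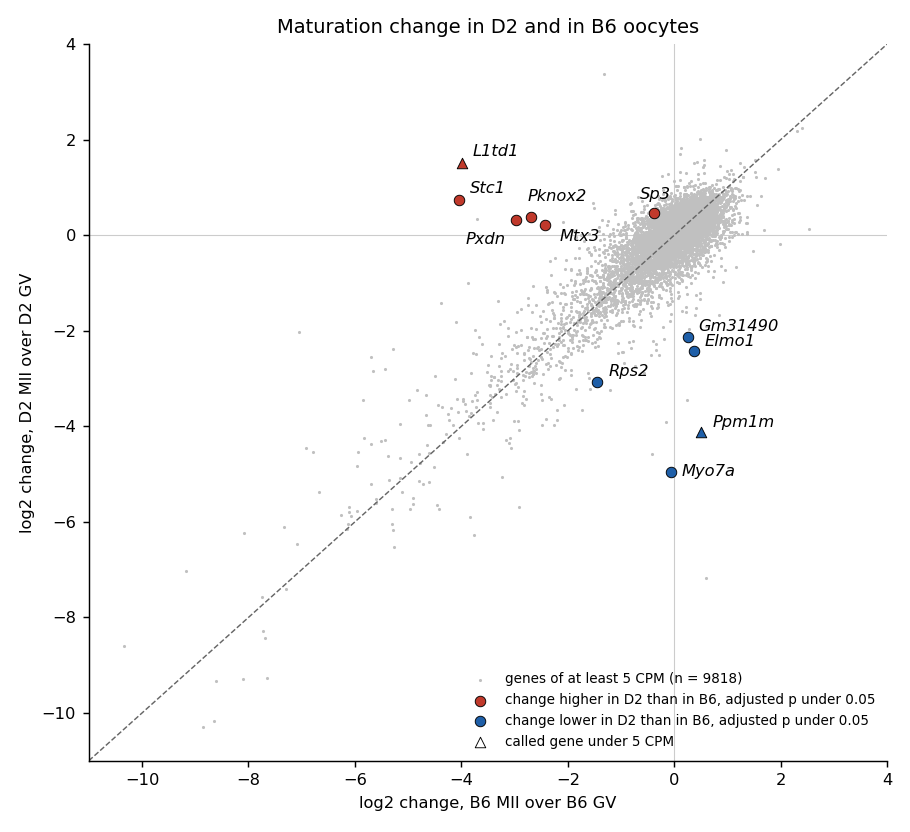
Log2 change from GV to MII in D2 (vertical axis) against B6 (horizontal axis) for the 9818 genes of at least 5 CPM (grey), with 11 of the 12 genes whose changes differed in colour and the line of equal change dashed. Most genes lie along the line, while Pxdn, Stc1, Pknox2, Mtx3 and L1td1 lie far to its left near or above a D2 change of 0, and Myo7a, Ppm1m, Elmo1 and Gm31490 lie below it near a B6 change of 0; Rsl1, with no read in D2 MII, is not drawn.

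The 12 genes were chosen for a difference in the same GV and MII levels, so the counts in this paragraph are a description only. In 11 of the 12 genes the strain with the lower change also had the lower mean level at GV, and in all 12 it had the lower mean level at MII. For those 11 the lower MII level largely follows from the lower GV level and the lower change. That strain's own fall passed the test in each of the 12, while the other strain's change passed in 2, Rps2 and Sp3. The difference between the strains passed at GV in 8 of the 12, against 19.4% of all tested genes, 9.33% higher and 10.1% lower in D2. D2 and B6 libraries did not overlap at MII for 11 of the 12 genes (13.2% of all tested genes) and at GV for 8 (10.7%). MII and GV libraries did not overlap in D2 for 4 of the 12 (8.06% of all tested genes) and in B6 for 3 (7.49%). Of the 2594 genes that differed between the strains at both stages in the same direction, 8 were among the 12, and of the 1957 that differed at MII and not at GV, 4 were.

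Pxdn encodes peroxidasin, a peroxidase that cross-links collagen IV in basement membranes (chr12:29937608-30017658, plus strand, GRCm38). It stood at 156, 169, 154, 201 and 196 CPM in D2 MII and at 117, 119, 165, 138 and 177 CPM in D2 GV. It stood at 0.146 to 0.963 CPM in B6 MII (median 0.519) and at 3.92, 5.65, 2.70, 0.763 and 8.18 CPM in B6 GV. D2 was far above B6 in every library at both stages, the D2 stages overlapped, and 4 of the 5 B6 GV libraries lay above all B6 MII libraries. The log2 change was 0.31 ± 0.32 in D2 and -2.98 ± 0.40 in B6 (SE), a difference of 3.29 ± 0.52 (adjusted p = 0.0198, edgeR's quasi-likelihood test). Without D2 GV batch 1 replicate 4 the adjusted p was 0.0502.

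Pknox2, a homeodomain transcription factor gene (chr9:36890982-37147407, minus strand), had the same form. It had 43.1, 40.0, 37.2, 74.9 and 89.7 CPM in D2 MII and 33.0, 33.2, 36.4, 55.1 and 57.1 CPM in D2 GV. It had 0.109 to 0.492 CPM in B6 MII (median 0.278) and 0.849, 1.02, 1.09, 0.334 and 5.82 CPM in B6 GV. The D2 libraries were above all B6 libraries at each stage, and among the B6 GV libraries batch 2 replicate 1 lay inside the MII range. Its log2 change came to 0.37 ± 0.33 in D2 and -2.70 ± 0.42 in B6, a difference of 3.07 ± 0.54 (adjusted p = 0.0198 in edgeR's test). The adjusted p was 0.0632 without B6 MII batch 2 replicate 2, 0.0561 without B6 MII batch 2 replicate 3 and 0.0502 without D2 GV batch 1 replicate 4.

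Stc1 encodes stanniocalcin 1, a secreted glycoprotein first known as a calcium-regulating hormone of fish (chr14:69029238-69041804, plus strand). It had 7.73, 12.3, 16.4, 15.7 and 48.9 CPM in D2 MII and 10.3, 11.6, 7.03, 13.6 and 11.6 CPM in D2 GV. It had 0 to 0.225 CPM in B6 MII (median 0.0523, 17 reads over the 6 libraries) and 0.732, 0.690, 0.825, 0.334 and 5.57 CPM in B6 GV. The B6 stages did not overlap, and D2 MII batch 2 replicate 2 and B6 GV batch 2 replicate 2 stood above the rest of their groups. The log2 change was 0.74 ± 0.50 in D2 and -4.04 ± 0.63 in B6, a difference of 4.78 ± 0.81 (adjusted p = 0.0198 in edgeR's test, and 0.0502 without D2 GV batch 1 replicate 4).

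Mtx3, a metaxin of the mitochondrial outer membrane (chr13:92844787-92858230, plus strand), began at like levels in the strains. It had 9.73, 11.2, 11.7, 13.4 and 11.1 CPM in D2 MII and 11.9, 10.2, 7.17, 15.1 and 5.92 CPM in D2 GV. It had 0.984 to 2.40 CPM in B6 MII (median 1.61) and 9.17, 7.56, 7.16, 3.20 and 16.2 CPM in B6 GV. At GV the strains overlapped, while at MII every D2 library was above every B6 library and all B6 MII libraries were below all B6 GV libraries. The log2 change was 0.21 ± 0.35 in D2 and -2.43 ± 0.35 in B6, a difference of 2.65 ± 0.50 (adjusted p = 0.0291 in edgeR's test). The call held in 9 of the 21 fits with 1 library left out, with adjusted p up to 0.138.

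Sp3, a zinc finger transcription factor that binds GC boxes (chr2:72936427-72980446, minus strand), was the gene among the 12 whose change passed in opposite directions. It had 79.0, 82.3, 71.5, 86.2 and 79.3 CPM in D2 MII and 65.6, 63.4, 51.9, 57.4 and 56.4 CPM in D2 GV. It had 30.4 to 38.7 CPM in B6 MII (median 35.5) and 36.2, 38.3, 47.3, 48.8 and 46.4 CPM in B6 GV. The D2 stages did not overlap, with MII higher, and the B6 stages overlapped at their edges, with MII lower. Sp3 rose by a log2 of 0.46 ± 0.12 in D2 (adjusted p = 0.00531) and fell by 0.38 ± 0.11 in B6 (adjusted p = 0.0148), a difference of 0.83 ± 0.16 (adjusted p = 0.0336), all by edgeR's quasi-likelihood test. The call held in 5 of the 21 fits with 1 library left out, with adjusted p up to 0.199 and a difference of 0.70 to 0.89.

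L1td1, an RNA-binding protein gene derived from a LINE-1 element and known from pluripotent cells (chr4:98726748-98738480, plus strand), was scarce and lay outside the rule for named genes for its mean level. It had 2.88, 1.72, 21.7, 4.16 and 7.58 CPM in D2 MII and 2.89, 1.10, 3.97, 2.55 and 3.31 CPM in D2 GV. In B6 it had 4 reads over all 6 MII libraries, a pooled 0.0229 CPM, and 53 reads over the 5 GV libraries, a pooled 0.387 CPM. No D2 library overlapped a B6 library at either stage. The difference of 5.50 ± 1.04 (adjusted p = 0.0291 in edgeR's test) held in 10 of the 21 fits with 1 library left out.

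**Figure D2:**
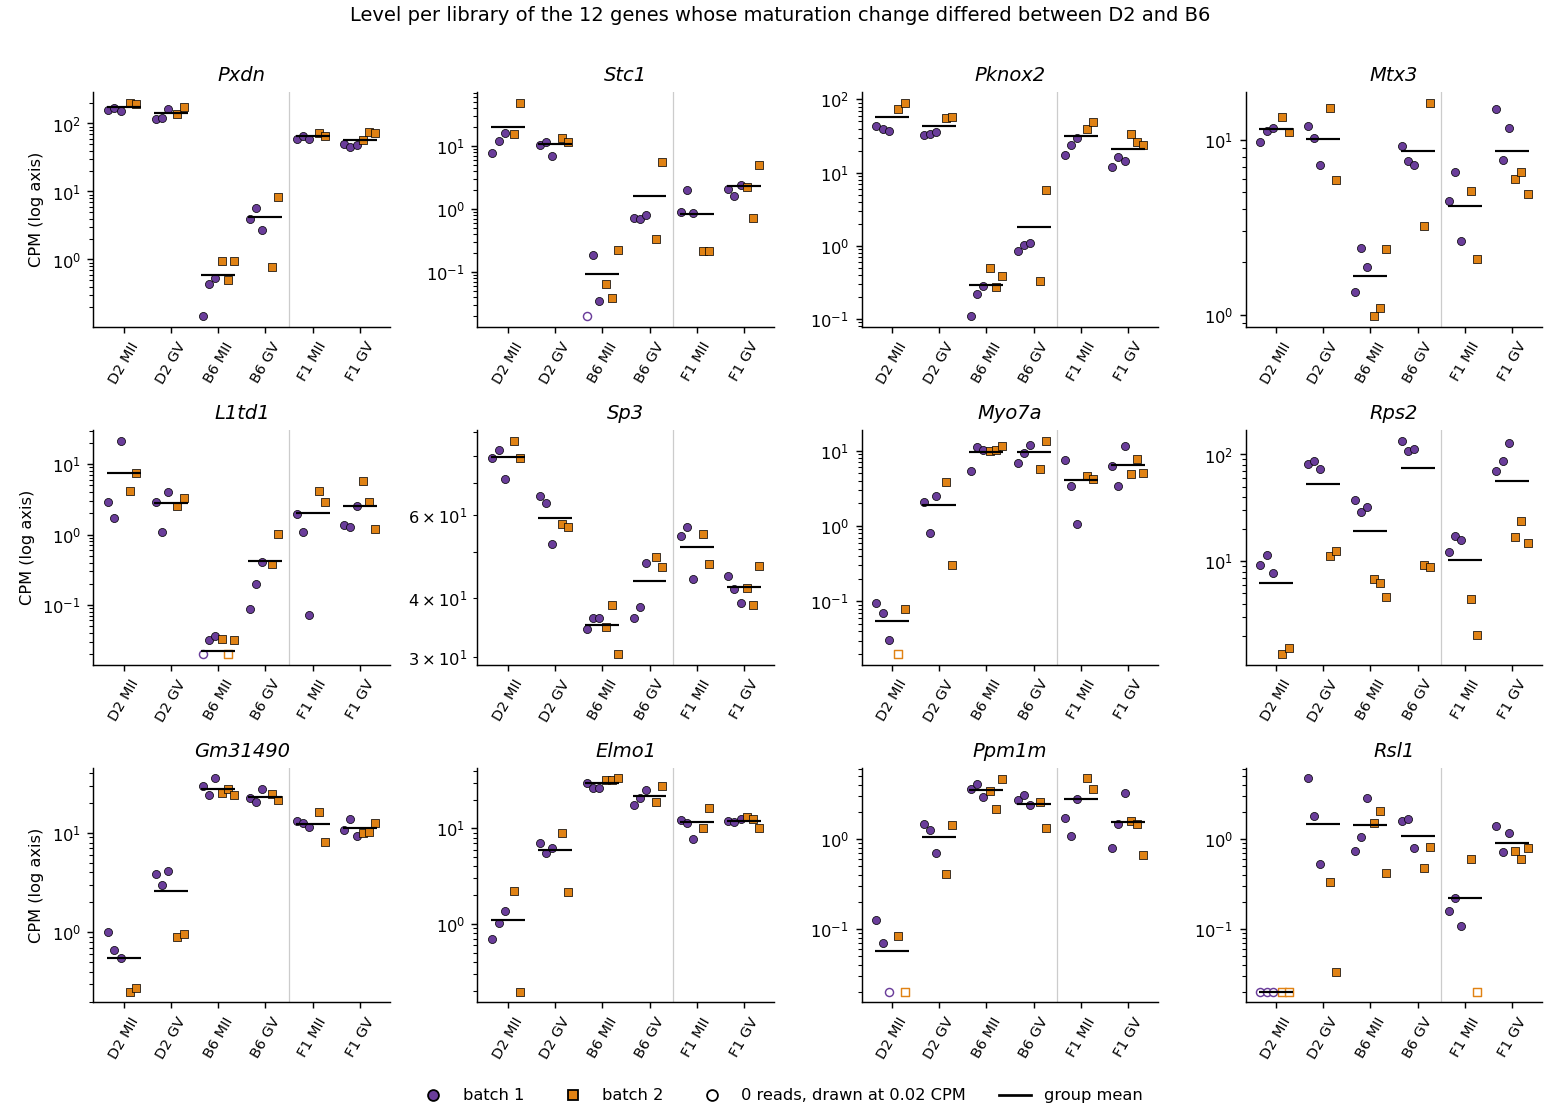
CPM per library on log axes for the 12 genes, with D2, B6 and F1 groups from left to right, MII before GV in each; circles are batch 1, squares batch 2, bars group means, and open symbols libraries with 0 reads drawn at 0.02 CPM. In the top row and for L1td1 the B6 MII libraries are the lowest of the D2 and B6 groups, and for Myo7a, Elmo1, Gm31490, Ppm1m and Rsl1 the D2 MII libraries are.

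Myo7a, an unconventional myosin of inner ear hair cells and retinal pigment epithelium (chr7:98051060-98119524, minus strand), led the genes with a lower change in D2. It had 0.0950, 0.0690, 0.0304, 0 and 0.0782 CPM in D2 MII, 8 reads in all, and 2.05, 0.798, 2.53, 3.81 and 0.301 CPM in D2 GV. It had 5.36 to 11.6 CPM in B6 MII (median 10.1) and 6.79, 9.20, 12.0, 5.72 and 13.6 CPM in B6 GV. The D2 stages did not overlap, the B6 stages did, and D2 was below B6 in every library. Its log2 change came to -4.96 ± 0.63 in D2 and -0.06 ± 0.44 in B6, a difference of -4.90 ± 0.78 (adjusted p = 0.0198 in edgeR's test). Myo7a was the gene among the 12 whose call held in each of the 21 fits with 1 library left out, with adjusted p up to 0.0488.

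Elmo1 encodes a scaffold that activates Rac together with DOCK proteins in engulfment and migration (chr13:20090619-20608353, plus strand). It had 0.697, 1.03, 1.37, 2.23 and 0.195 CPM in D2 MII and 7.02, 5.47, 6.30, 9.06 and 2.17 CPM in D2 GV. It had 26.3 to 33.5 CPM in B6 MII (median 31.0) and 17.7, 20.9, 25.4, 18.7 and 27.5 CPM in B6 GV. D2 GV batch 2 replicate 2 lay inside the D2 MII range, and the other 4 D2 GV libraries lay above it. The log2 change was -2.43 ± 0.38 in D2 and 0.37 ± 0.33 in B6, a difference of -2.79 ± 0.51 (adjusted p = 0.0253 in edgeR's test), held in 16 of the 21 fits with 1 library left out. The adjusted p in the other fits ran up to 0.0634, the value without D2 MII batch 1 replicate 2.

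Rps2, a protein of the small ribosomal subunit (chr17:24720063-24721929, plus strand), fell in both strains and more in D2. It had 9.16, 11.4 and 7.71 CPM in batch 1 and 1.35 and 1.52 CPM in batch 2 of D2 MII, against 82.3, 87.2 and 73.5 CPM in batch 1 and 11.1 and 12.4 CPM in batch 2 of D2 GV. It had 37.3, 28.8 and 32.1 CPM in batch 1 and 6.82, 6.28 and 4.59 CPM in batch 2 of B6 MII, against 135, 107 and 112 CPM in batch 1 and 9.21 and 8.79 CPM in batch 2 of B6 GV. Batch 2 was lower in every group, and within each batch all MII libraries were below all GV libraries of their strain. Rps2 had a log2 change of -3.07 ± 0.22 in D2 and -1.45 ± 0.19 in B6, a difference of -1.62 ± 0.28 (adjusted p = 0.0198 in edgeR's test, and 0.0502 without D2 GV batch 1 replicate 4). The difference was -1.24 in batch 1 alone and -2.37 in batch 2 alone. Rps2 has processed copies elsewhere in the genome, and how reads shared with them were counted is not given in the sources used here.

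Gm31490, a predicted gene with no role given and outside the naming rule for that reason, had 1.01, 0.655, 0.547, 0.252 and 0.274 CPM in D2 MII and 3.87, 3.00, 4.17, 0.888 and 0.969 CPM in D2 GV. Its B6 levels were 24.2 to 35.5 CPM in MII and 20.3 to 27.7 CPM in GV, above every D2 library. The difference was -2.38 ± 0.42 (adjusted p = 0.0198 in edgeR's test), and the adjusted p was 0.0527 without B6 GV batch 1 replicate 2, 0.0502 without D2 GV batch 1 replicate 4 and 0.0538 without D2 MII batch 1 replicate 4.

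Ppm1m and Rsl1 were below the level the naming rule asked for. Ppm1m, a protein phosphatase of the PP2C family (chr9:106194951-106199275, minus strand), had 8 reads over the 5 D2 MII libraries against 151 over the 5 D2 GV libraries, a pooled 0.0560 and 1.06 CPM, while B6 had 616 reads in MII and 337 in GV, a pooled 3.53 and 2.46 CPM. The D2 stages of Ppm1m did not overlap, and the difference was -4.62 ± 0.85 (adjusted p = 0.0253 in edgeR's test), held in 16 of the 21 fits with 1 library left out. Rsl1, a zinc finger repressor known from the mouse for regulating sex-limited liver genes (chr13:67173182-67184044, plus strand), had 0 reads in all 5 D2 MII libraries. D2 GV had 214 reads of Rsl1, 141 of them in 1 library, batch 1 replicate 3, so D2 MII was at least 71.3-fold lower than D2 GV when 3 counts over the group are taken as the floor, and at least 30.7-fold lower without that library. The same library stood apart in the stroma, blood and epithelial markers, whose sum was 733 CPM there and 26.8 to 110 CPM in the other 4 D2 GV libraries; their part in the result was not tested. Without it the adjusted p of Rsl1 was 0.0478 in edgeR's test. B6 had 246 reads of Rsl1 in MII and 156 in GV, a pooled 1.41 and 1.14 CPM, and the strain difference had an adjusted p of 0.0253 in edgeR's test, held in 16 of the 21 fits with 1 library left out. Rsl1 belongs to a cluster of similar zinc finger genes, so its reads could be shared with them.

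The difference kept its sign in batch 1 alone and in batch 2 alone for all 12 genes. In batch 1 alone 5 of the 12 were called, and in batch 2 alone none of the 12 was, where the count at an unadjusted p under 0.05 was 1306 genes. For Pxdn the batch values were 3.70 in batch 1 and 2.87 in batch 2. For Pknox2 they were 2.48 in batch 1 and 3.62 in batch 2. For Stc1 they were 3.55 and 6.10, batch 1 first, and for Mtx3 2.26 and 3.01. For Myo7a they were -4.62 and -5.57, for Elmo1 -2.95 and -2.65, and for Sp3 0.57 and 1.05. Sp3 was the smallest of the 12 differences in both batches.

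For some of the 12 genes the level in GV oocytes of the strain that fell moved with the granulosa and cumulus markers. Over the 5 B6 GV libraries Pxdn followed the marker order, with 8.18 CPM at a marker level of 3.01 log2 CPM, 5.65 at 2.73, 3.92 at 2.39, 2.70 at 1.70 and 0.763 at -0.84. Pknox2 and Stc1 were highest in the same B6 GV library as Pxdn, at 5.82 and 5.57 CPM, and lowest in the same library, at 0.334 CPM each. Mtx3 likewise ran to 16.2 CPM in that highest library and to 3.20 CPM in the lowest. In D2 GV, Myo7a and Elmo1 were highest in the library at 3.24, at 3.81 and 9.06 CPM, and lowest in the library at -0.24, at 0.301 and 2.17 CPM. Sp3, Ppm1m, Rps2 and Gm31490 did not have this order: Sp3 was highest, at 48.8 CPM, in the B6 GV library lowest in the markers, and Ppm1m was lowest, at 0.407 CPM, in the D2 GV library highest in them. In the GV library low in these markers, 4 of the 12 genes (Pxdn, Pknox2, Elmo1 and Gm31490) lay within the MII range of the strain that fell, and the other 8 lay above it. That range spans both batches, while the low GV libraries are of batch 2. Gm31490 stood at 0.969 CPM there, above the 0.252 and 0.274 CPM of D2 MII in batch 2. Rsl1 counted as above on 1 read against 0 in D2 MII, its lowest D2 GV value.

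A model with the marker level as a term of 1 slope for both strains called all 12 genes and 21 in all. With 1 slope for each strain, a term added after the data were seen, 0 genes were called, and the difference was -0.02 ± 0.51 for Pxdn, 0.03 ± 0.63 for Pknox2, -1.44 ± 0.72 for Elmo1 and 2.29 ± 1.32 for Stc1. In that model the difference was -2.39 ± 0.49 for Rps2, -5.06 ± 1.42 for Ppm1m, 1.02 ± 0.29 for Sp3 and 5.15 ± 1.66 for L1td1. For L1td1 this was below the 5.50 without the term. The difference was also smaller in size than without the term for Mtx3 (2.04 ± 0.77), Myo7a (-3.40 ± 1.17), Gm31490 (-1.69 ± 0.74) and Rsl1 (-4.94 ± 2.04, a fitted value that depends on the prior count). Adjusted p ran from 0.378 for Rps2 to 1 for Pxdn in edgeR's test. Marker level and stage nearly coincide in these libraries. The SE in that model was larger than without the term for all of the 12 genes but Pxdn. For Pxdn it was 0.51 against 0.52, while the difference itself moved from 3.29 to -0.02. For Pknox2 the SE was 0.63 against 0.54, and the difference moved from 3.07 to 0.03. With the GV libraries low in the markers as the only GV library of each strain, also added after the data were seen, the difference was 0.42 ± 0.57 for Pxdn and 0.24 ± 0.60 for Pknox2, against -2.33 ± 0.52 for Rps2, -5.04 ± 1.51 for Ppm1m, 4.97 ± 1.70 for L1td1 and 0.97 ± 0.28 for Sp3. The value for L1td1 was below its 5.50 with all GV libraries. The remaining genes were also smaller in size than with all GV libraries, at -3.08 ± 1.01 for Myo7a, 2.58 ± 1.25 for Stc1, -1.64 ± 0.83 for Elmo1, -1.09 ± 0.63 for Gm31490, 1.87 ± 0.77 for Mtx3 and -4.71 ± 2.26 for Rsl1. Of the 12 genes 0 were called in that fit, in which 1790 genes had an unadjusted p under 0.05. The part of attached cells in the 12 differences was not tested beyond these values.

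**Figure D3:**
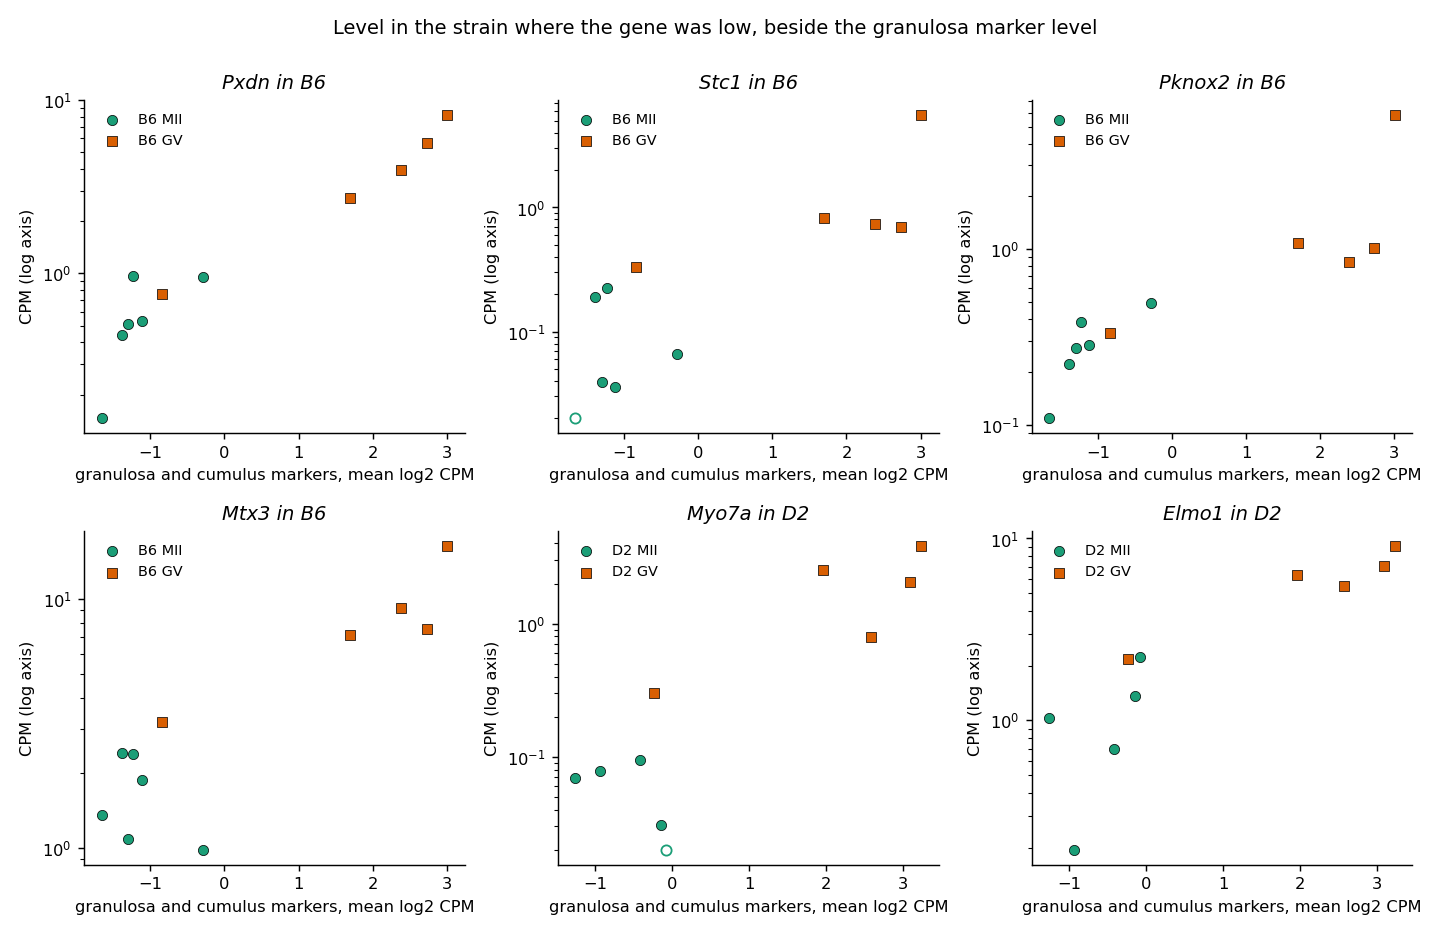
CPM (log axis) of 6 genes in the strain where they fell, against the mean log2 CPM of the granulosa and cumulus markers in the same library; circles are MII, squares GV, and an open symbol is a library with 0 reads drawn at 0.02 CPM. The GV library at the left of each panel, at -0.84 in B6 or -0.24 in D2, lies within the MII points for Pxdn, Pknox2 and Elmo1 and above them for Stc1, Mtx3 and Myo7a.

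The F1 libraries gave the same measure in samples that the comparison did not use. In F1, 6241 genes changed (34.6% of those tested, 2717 higher and 3524 lower in MII). The F1 change lay between the D2 and B6 changes for 10 of the 12 genes, against 38.2% of all tested genes. It was nearer D2 for 6 of the 12, against 53.6% of all tested genes. Since the 12 were chosen for a wide gap between those changes, their count is a description only. The 2 genes outside were Pknox2, which rose by 0.68 ± 0.17 (adjusted p = 0.00477, edgeR's test of the F1 libraries alone), and Ppm1m, at 0.77 ± 0.51. Of the genes that fell in B6, Mtx3 fell by 1.08 ± 0.32 in F1 (adjusted p = 0.0144) and Stc1 fell by 1.84 ± 0.69 (adjusted p = 0.0476, edgeR's test of the F1 libraries alone). Pxdn changed by 0.17 ± 0.12 in F1, L1td1 by -0.40 ± 0.59 and Sp3 by 0.25 ± 0.11, none past the threshold. Of the genes that fell in D2, Rps2 fell by 2.64 ± 0.22 in F1 (adjusted p = 3.94e-07, edgeR's test of the F1 libraries alone). Rsl1 changed by -2.07 ± 0.79 in F1, just short of the threshold (adjusted p = 0.0514 in the same edgeR test). Myo7a changed by -0.70 ± 0.42, Elmo1 by -0.08 ± 0.20, Gm31490 by 0.11 ± 0.21 and Ppm1m by 0.77 ± 0.51, none past the threshold. Pxdn at 58.6 to 73.1 CPM in F1 MII and 45.2 to 75.0 CPM in F1 GV lay between all D2 and all B6 libraries. Elmo1 stood at 7.72 to 16.5 CPM in F1 MII and 10.1 to 13.2 CPM in F1 GV, below all B6 libraries and, but for the MII library at 7.72 CPM, above all D2 libraries. The files do not split F1 reads by parental allele.

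A set of 8 genes just outside the threshold, chosen after their values were seen, had adjusted p from 0.0559 to 0.0843 in edgeR's test. Klf12, a Krüppel-like repressor, averaged 18.2 ± 3.37 CPM in D2 MII and 14.7 ± 6.38 in D2 GV, against 0.0861 ± 0.0615 in B6 MII and 1.06 ± 0.984 in B6 GV (SD), a log2 difference of 4.04 ± 0.81 (SE). Myocd, the smooth muscle coactivator myocardin, averaged 9.88 ± 1.18 CPM in D2 MII and 51.8 ± 25.3 in D2 GV, against 0.332 ± 0.287 in B6 MII and 11.9 ± 6.78 in B6 GV, a difference of 2.89 ± 0.62. Tex15, needed for meiotic recombination in male mice, averaged 4.70 ± 1.58 CPM in D2 MII and 21.6 ± 12.5 in D2 GV, against 175 ± 21.4 in B6 MII and 192 ± 35.8 in B6 GV, a difference of -1.98 ± 0.41. The other 5 were abundant genes with smaller differences, 0.86 ± 0.18 for Pank3 of coenzyme A synthesis, -1.12 ± 0.23 for the Rap exchange factor gene Rapgef4, 1.30 ± 0.27 for the glycosylation gene Alg11, 0.84 ± 0.18 for the maternal-effect gene Nlrp2 and 0.67 ± 0.14 for the polarity kinase gene Prkci.

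For most well-measured genes the D2 and B6 changes differed by less than 2-fold. Of the 6164 genes of at least 20 CPM, 5393 (87.5%) had a 95% interval of the difference that lay within -1 to 1 log2, so a strain difference of more than 2-fold in the change lay outside the interval. That margin is wider than some of the changes themselves. It takes in Prkci, with changes of 0.43 in D2 and -0.24 in B6 and an interval of 0.37 to 0.97. Over these genes the D2 and B6 changes had a Spearman rho of 0.66, and 82.1% of genes had the same sign. Among the 8229 genes under 5 CPM the interval lay within -1 to 1 log2 for 0.559%. For most scarce genes the interval thus took in strain differences of more than 2-fold. Still, 3 of the genes under 5 CPM were called. Of the 1776 genes called in D2 and not in B6, 1574 had the same sign in B6 and 5 differed between the strains. Of the 1706 called in B6 and not in D2, 1537 had the same sign in D2 and 5 differed.

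Genes of the maturation programme, chosen after their values were seen, show the shared change. Btg4, the adaptor that directs the CCR4-NOT deadenylase to maternal messages, averaged 1140 ± 82 CPM in D2 MII and 803 ± 169 in D2 GV, against 1187 ± 138 in B6 MII and 688 ± 152 in B6 GV, with a log2 difference in change of -0.21 (95% interval -0.57 to 0.16). The decapping cofactor Dcp1a rose in both strains, by 0.61 ± 0.10 in D2 and 0.71 ± 0.10 in B6, and its difference was -0.10 (-0.39 to 0.20). The meiotic kinase gene Wee2 rose by 0.46 ± 0.09 in D2 and 0.34 ± 0.09 in B6, with a difference of 0.12 (-0.14 to 0.37). The zona gene Zp2 fell by 1.72 ± 0.14 in D2 and by 1.79 ± 0.13 in B6, with a difference of 0.08 (-0.31 to 0.46). Cpeb1, which binds the cytoplasmic polyadenylation element, fell by 1.70 ± 0.10 in D2 and by 1.29 ± 0.10 in B6, with a difference of -0.41 (-0.71 to -0.12) that was not past the threshold after adjustment (adjusted p = 0.412 in edgeR's test). For these 5 genes each strain's own change passed the test.

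**Figure D4:**
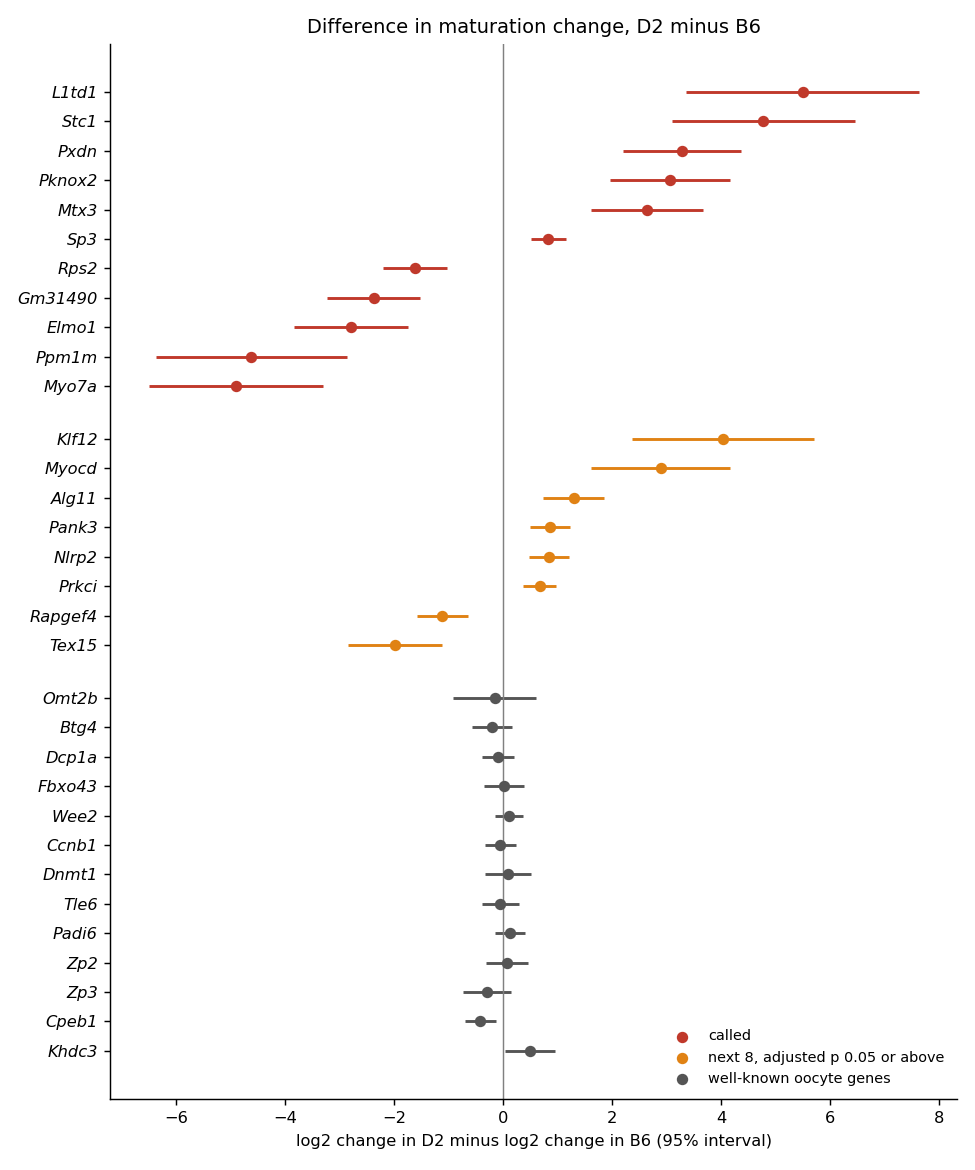
Log2 change in D2 minus log2 change in B6 with its 95% interval, for 11 of the 12 called genes (red), the 8 genes just outside the threshold (orange) and 13 well-known oocyte genes (grey); Rsl1, with no read in D2 MII, is not drawn. The grey intervals all lie within -1 to 1, while the called genes other than Sp3 lie beyond it in their point estimates. Red genes were chosen for their difference and grey ones after their values were seen, so this contrast is a description only.

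The last 100 bases of the annotated 3′ UTR were searched for the cytoplasmic polyadenylation element, TTTTAT or TTTTAAT in the message strand, and for ATTTA, the core of AU-rich decay elements, in GENCODE M21 transcripts of GRCm38. The sites below are those of the 12 genes that hold either motif, followed by 3 messages of the shared programme, to show the sequences that the counts refer to; the motif is in capitals.
Pxdn, chr12:30017559-30017588, plus strand: ccaTTTTATgttccttgtattcagtccatt
Sp3, chr2:72936497-72936526, minus strand: aataaatatATTTActtaaaaagaggtgta
Ppm1m, chr9:106195021-106195050, minus strand: tcATTTAaccatccatccacacaaggtacc
L1td1, chr4:98738427-98738456, plus strand: acattgctttattATTTActattacatatt
Rsl1, chr13:67183990-67184019, plus strand: acactgaagtcatATTTAgttccagaataa
Btg4, chr9:51119797-51119826, plus strand: agataaatccctTTTTATgtctttttaaaa
Dcp1a, chr14:30526985-30527014, plus strand: tttcatcctaaaTTTTATatgtttgcaaat
Wee2, chr6:40466756-40466785, plus strand: ctttttaacataTTTTAATccagatcattg

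Of the 12 genes, 10 had such a window, and 1 of them, Pxdn, held the polyadenylation element, while 4 held ATTTA. Among the 8704 genes of at least 5 CPM with a window, 21.1% held the polyadenylation element and 24.7% held ATTTA, and of the 7 of the 12 genes at that level with a window 1 held the element and 1 held ATTTA. Genes with the polyadenylation element had a median log2 change of 0.25 in D2, 0.17 in B6 and 0.27 in F1, against 0.14 in D2, 0.07 in B6 and 0.13 in F1 for genes without it. In D2 27.6% of the 1834 genes with the element rose and 7.09% fell, against 17.9% and 11.1% of the 6870 without it. In B6 24.3% of genes with it rose and 8.94% fell, against 14.5% and 13.4% without it. The median difference between the strains' changes was 0.07 with the element and 0.06 without. A motif in this window is a match of letters, and other annotated ends were not searched.

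Gene lists of oocyte function and metabolism, chosen with earlier results of these data known, are described by counts and medians in each strain. Over all genes tested 14.6% fell in D2 and 15.7% in B6. Of the 79 cytosolic ribosomal protein genes, 77 fell in D2 and 74 in B6, with medians of -2.43 in D2, -2.27 in B6 and -2.82 in F1, and the median difference was -0.07, against 0.03 over all genes tested. Rps2 was the only member of this list, and of all 22 lists, whose change differed between the strains in edgeR's test. Among the list members that DESeq2 also called were Rps15a, Cat and Nlrp2. Rps15a had a difference of -0.83 ± 0.21 with an adjusted p of 0.191 in edgeR's test, and Rpl15 had 0.92 ± 0.28 with an adjusted p of 0.343. Of the 76 nuclear respiratory chain genes, 63 fell in D2 and 64 in B6, with medians of -1.61 in D2 and -1.71 in B6 and a median difference of 0.07. Mitochondrial ribosomal protein genes fell in 28 of 77 cases in D2 and 24 in B6, with a median difference of -0.11. Antioxidant genes fell in 14 of 38 cases in D2 and 16 in B6; among them the hydrogen peroxide scavenger Cat averaged 5.82 ± 3.26 CPM in D2 MII and 9.65 ± 4.36 in D2 GV, against 1.10 ± 0.875 in B6 MII and 16.1 ± 18.5 in B6 GV, a difference of 2.87 ± 0.68 with an adjusted p of 0.141 in edgeR's test.

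Messages for chromosome segregation and for the subcortical maternal complex, a protein assembly of the egg cortex needed for early cleavage, had no member past the threshold in edgeR's test, and DESeq2 called 1, Nlrp2. Of 47 cohesin, checkpoint, kinetochore and spindle genes, 32 had a positive difference, against 9406 of all 18047 genes tested. The median was 0.13, against 0.03 over all genes, with 10 genes higher and 0 lower in D2 at an unadjusted p under 0.05, where all tested genes gave 4.87% higher and 3.65% lower. Within batches that list's median was 0.03 in batch 1 and 0.08 in batch 2, against -0.06 in batch 1 and 0 in batch 2 over all genes. Ckap5, a microtubule polymerase of the spindle, averaged 357 ± 52.2 CPM in D2 MII and 265 ± 53.4 in D2 GV, against 278 ± 55.1 in B6 MII and 260 ± 51.9 in B6 GV, a difference of 0.48 ± 0.15 with an adjusted p of 0.354 in edgeR's test. Cep192, which builds microtubule organizing centres, had a difference of 0.65 ± 0.17 (adjusted p = 0.221) and the spindle motor Kif11 one of 0.54 ± 0.19 (adjusted p = 0.426). Of the 20 genes of the subcortical complex and other maternal-effect genes, 13 had a positive difference, against the same 9406 of 18047. The median over the 20 was 0.13, and 4 were higher and 0 lower at an unadjusted p under 0.05. The median was 0 in batch 1 and 0.21 in batch 2. Those 4 were Nlrp2, Nlrp14, Nlrp5 and Khdc3, with differences of 0.84 ± 0.18, 0.57 ± 0.16, 0.51 ± 0.15 and 0.50 ± 0.23 and adjusted p of 0.0843, 0.282, 0.342 and 0.554 in edgeR's test. Other genes of the complex lay nearer 0, at -0.05 ± 0.17 for Tle6, 0.08 ± 0.18 for Ooep and 0.12 ± 0.13 for Padi6. Nlrp2 averaged 402 ± 38.6 CPM in D2 MII and 429 ± 63.9 in D2 GV, against 249 ± 57.4 in B6 MII and 441 ± 83.3 in B6 GV. Nlrp5 averaged 898 ± 22.4 CPM in D2 MII and 922 ± 170 in D2 GV, against 820 ± 58.7 in B6 MII and 1123 ± 191 in B6 GV.

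The remaining lists are given by the median difference over their tested members, against 0.03 over all genes, and edgeR's test called 0 of their members, limma-voom 0 and DESeq2 1. For mRNA decay genes the median difference was 0.07 over 35 genes, for translational control 0.02 over 29, for meiotic kinases and the anaphase-promoting complex 0.06 over 41, for zona and oocyte-secreted factors 0.01 over 23, for maternal chromatin 0.09 over 30, for proteasome 0.07 over 44 and for oocyte markers -0.04 over 12. It was 0.15 over 55 DNA repair genes, with 6 higher and 1 lower at an unadjusted p under 0.05, and 0.22 over 22 egg activation genes, with 4 higher and 1 lower. It was 0.13 over 26 heat shock and immediate early genes and 0.04 over 32 lipid genes. It was -0.13 over 39 genes of glycolysis and the citric acid cycle, -0.18 over 26 interferon response genes, 0.37 over 24 granulosa and cumulus markers, -0.19 over 17 stroma, blood and epithelial markers and 0.43 over 8 strain label genes. Of the 24 granulosa markers, 16 fell and 1 rose in D2, and 17 fell and 1 rose in B6, with medians of -5.52 in D2 and -5.34 in B6. In edgeR's adjusted test 0 of them differed between the strains, and 3 were higher and 1 lower at an unadjusted p under 0.05. DESeq2 and limma-voom called 0 of them as well.

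**Figure D5:**
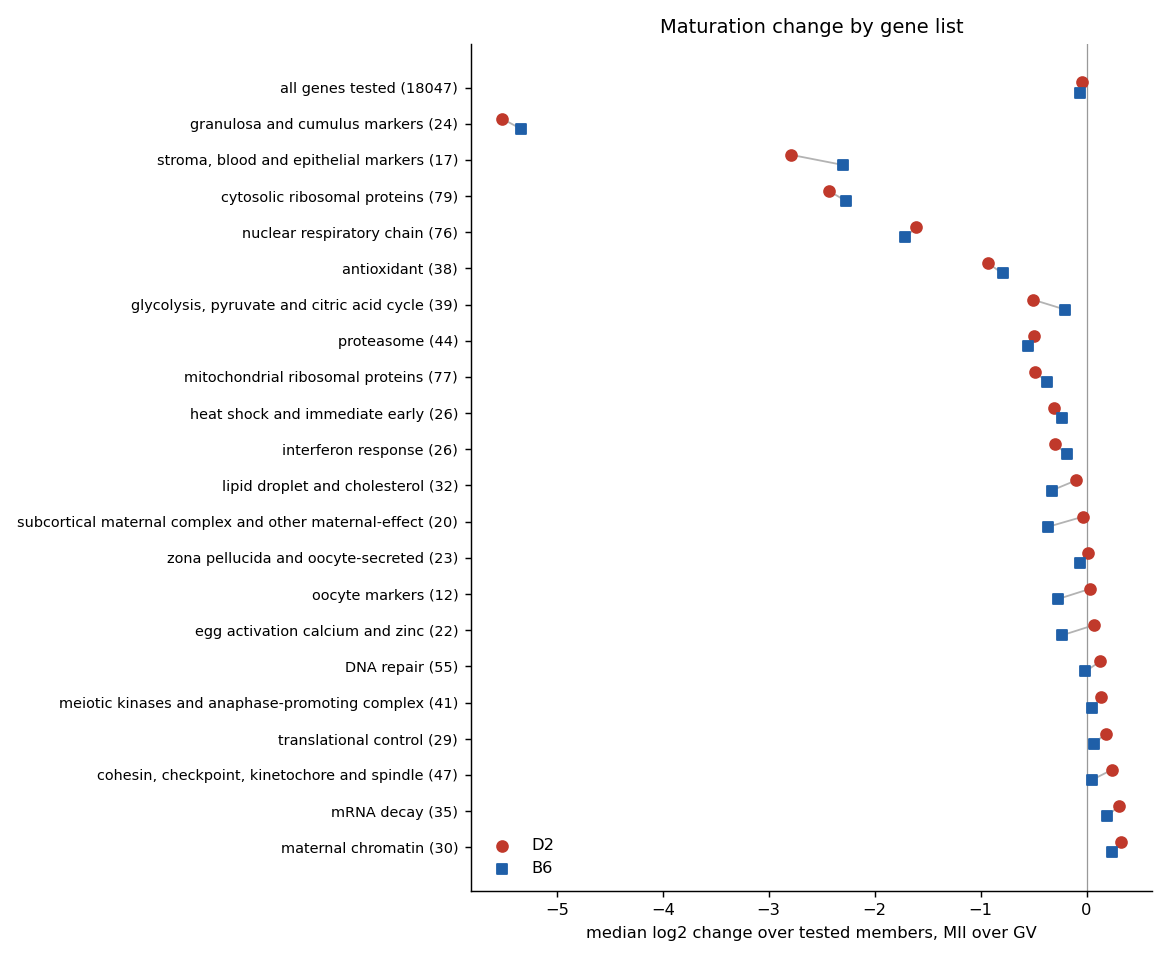
Median log2 change from GV to MII over the tested members of each list (number in brackets), D2 as circles above B6 as squares. The lists fall in nearly the same order in both strains, from the granulosa markers at -5.52 in D2 and -5.34 in B6 to maternal chromatin at 0.33 in D2 and 0.24 in B6.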

How the data were processed

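RNA was measured in oocytes of D2, B6 and F1 females. Per the labels' protocols, each library was a pool of oocytes of 1 mother, so replicates are separate animals, and RNA was amplified by single primer isothermal amplification, sheared, given 12 PCR cycles and read from 1 end for 50 nt. The submitters' processing notes name HISAT2, SAMtools, featureCounts of Subread 1.5.1 and DESeq2 1.16.1, with GRCm38.p4. Settings for strand and multi-mapped reads are not given in the sources used here. Values in the deposited table are the authors' raw counts of reads per gene. Of its 37444 entries, 3 named no gene and held at most 0.019% of a library; 37441 were kept and 36371 had a RefSeq symbol.

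Counts of the 21 D2 and B6 libraries were filtered with filterByExpr, scaled by the trimmed mean of M values (TMM) and fitted with edgeR's robust quasi-likelihood functions, with 4 groups and batch as terms. Tests were two-sided, with Benjamini-Hochberg adjustment over the 18047 genes tested, and called below an adjusted p of 0.05. SEs of log2 changes are the change divided by the root of its F statistic, without sign. Marker levels are mean log2 CPM with a prior count of 2. The 11 F1 libraries were fitted alone in the same way. CPM are TMM-scaled over all 32 libraries, and pooled CPM divide summed reads by summed scaled totals. SDs and SEs include the spread between libraries; the floor of 3 counts covers counting error alone, as no molecular identifiers were used. No 2 libraries held the same counts. The fit was tested on simulated data, with 50 genes changed at each size of strain difference. It recovered 1 of 50 at 1.5-fold, 13 of 50 at 2-fold, 32 of 50 at 4-fold and 29 of 50 at 8-fold. It also called 3 unchanged genes, of 17385 genes in that fit.

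The comparison, the genes named and the 22 lists (828 members, 1 without an entry) were chosen with earlier results of these data known. Named genes were called genes with a RefSeq symbol, not predicted: with at least 5 CPM on average and the same sign in each batch, up to 8 in each direction; the 6 of lowest adjusted p at 20 CPM or more; genes of at least 5 CPM changing in opposite directions in the strains; and up to 2 called members per list of at least 1 CPM. Gm31490, Ppm1m, Rsl1 and L1td1 fell outside it and are given to account for all calls. Some list members are not reported here.

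Other settings tried were all 32 libraries in 1 fit, no batch term or one of 3 levels, each batch alone, DESeq2, limma-voom, limma-trend, other scalings and filters, a replicate block, the granulosa marker level as a covariate, without the GV libraries low in those markers, and each library left out. Granulosa slopes per strain and those GV libraries as the only ones were added after the data were seen. Motif sites and gene positions come from GENCODE M21 on GRCm38. Tests ran in R 4.3.3 with edgeR 4.0.16, DESeq2 1.42.0 and limma 3.58.1. Tables and figures were made in Python 3.11.15 with pandas 2.3.3, matplotlib 3.10.9 and numpy 2.4.6.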

Additional observations from a re-analysis of the deposited data

Results flagged for a closer look

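The change from GV to MII differed between D2 and B6 by edgeR's quasi-likelihood test of that difference itself for 12 genes. The log2 differences, D2 minus B6, were 3.29 for Pxdn, 4.78 for Stc1, 3.07 for Pknox2, 2.65 for Mtx3, 5.50 for L1td1 and 0.83 for Sp3, and -4.90 for Myo7a, -1.62 for Rps2, -2.38 for Gm31490, -2.79 for Elmo1 and -4.62 for Ppm1m. For Rsl1 the fitted value was -8.79, which depends on the prior count because D2 MII had 0 reads, and is no bound.

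In 5 of 71 groups checked, 1 library stood apart from the rest of its group by more than Dixon's 95% critical value, which chance exceeds in about 1 in 20 groups. Stc1 stood at 48.9 CPM in 1 D2 MII library (batch 2 replicate 2), against 16.4 CPM or less in the other 4. In 1 B6 GV library (batch 2 replicate 2), the one highest in granulosa markers, Stc1 stood at 5.57 CPM and Pknox2 at 5.82 CPM. Myo7a had its lowest B6 MII value, 5.36 CPM, apart from the other 5 libraries. Ppm1m had 3.28 CPM in 1 F1 GV library, above the rest of that group. No cause of these values was tested.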

How the results depend on the processing

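The count of 12 genes, 6 higher and 6 lower in D2, moved with the settings, and the cause was not tested. It was 20 (9 higher, 11 lower) with all 32 libraries in 1 fit, 29 (12 and 17) with no filter and 84 (38 and 46) by DESeq2. It was 1, Myo7a (0 higher, 1 lower), with no batch term, and 0 (0 and 0) in batch 2 alone, by limma-voom and by limma-trend, which gave 1306, 1309 and 1333 genes at an unadjusted p under 0.05. It was 21 (11 and 10) with the granulosa marker level as 1 covariate and 38 (13 and 25) without the 2 GV libraries low in those markers. Of the settings added after the data were seen, a marker slope per strain gave 0 (0 and 0; 1455 at an unadjusted p under 0.05), and those 2 libraries as the only GV libraries gave 1 (0 and 1), the predicted gene Gm10466. With 1 library left out the count ran from 1 to 25, with 0 to 12 higher and 1 to 17 lower. The count stayed within 1.5 times of 12 for a batch term of 3 levels (15), batch 1 alone (12), both other scalings (11 each) and 1 CPM in at least 10 libraries (12, with Rsl1 not tested). Only 5 of the genes called in batch 1 alone were among the 12 of the main fit. DESeq2, the fit of all 32 libraries and the batch term of 3 levels each called all 12. Each of the 12 differences kept its sign in every setting that gave a value, except Pxdn, at -0.02 with a marker slope per strain.

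The replicate block, with the number in the library name in place of batch, gave 0 calls (0 higher, 0 lower), with 913 genes at an unadjusted p under 0.05. Deviations of 22 library pairs with the same number had a median correlation of 0.01 (-0.48 to 0.19, 3 over 0.1) and those of 62 pairs with different numbers a median of 0. The deviations were taken from the mean of each group and batch, so in a group of 2 libraries they mirror each other. These medians therefore cannot show whether libraries with the same number share more than that number. With 5 or 6 libraries a group, the interval of the difference lay within -1 to 1 log2 for 87.5% of genes of at least 20 CPM and 0.559% of those under 5 CPM. Whether depth or the spread between pools sets this width was not tested.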
